A study of Homo sapiens with 4 samples.

Results

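The Mediator complex was followed at the level of its messenger RNAs in HCT116 cells, a line established from a human colon cancer. Its subunits were taken as every row of the count table whose symbol is MED and a number, with or without a final L, together with CDK8, CDK19 and CCNC; hyphenated names were left out. This gave 33 of the 20263 genes in the table, and all 33 had enough counts to be tested. The subunits were taken up because the low value of 1 of them, MED29, in N_12 was already known. The N_12 and DMSO values of MED29 are therefore given below as a description, with no p-value or interval, and nothing is read from its place among the called genes.

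Libraries were made from HCT116 cells given N_12 for 24 h and, as controls, from HCT116 cells given DMSO, the solvent. The cells of all libraries grew in medium with 10% serum and antibiotics. N_12 is a code name, described in the series title as a derivative of the kinase inhibitor nilotinib. The labels give no dose, and their treatment field carries another code, HJJ_3_5, for the N_12 samples. Each group held 2 libraries of mRNA sequencing. The labels do not say whether the replicates were separate cultures, so p-values measure only the spread between these libraries, which may be technical.

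Total counts were 41717938 and 39865327 for N_12 replicates 1 and 2, and 31120459 and 29769568 for DMSO replicates 1 and 2. Of 8 epithelial markers, 7 were abundant in all libraries; the exception was VIL1, the brush border protein villin, with 0 to 4 counts. The leukocyte markers PTPRC and CD3E and the fibroblast markers COL1A2, DCN and LUM had 0 counts in every library. The 6 leukocyte markers summed to 2.41 to 2.78 CPM (counts scaled to the size of the library) in N_12 and 1.28 to 1.93 CPM in DMSO. The 4 endothelial markers summed to 0.839 to 2.41 CPM in N_12 and 1.44 to 1.57 CPM in DMSO. The 6 fibroblast markers summed to 56.1 to 61.6 CPM in N_12 and 60.5 to 63.6 CPM in DMSO, nearly all of it from COL1A1.

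Mediator is the large complex that carries signals from DNA-bound transcription factors to RNA polymerase II at promoters. Its head and middle modules contact the polymerase, its tail module is the landing site of many activators, and MED14 is the backbone that ties these modules together. A separable kinase module, built of CDK8 or CDK19 with cyclin C, MED12 and MED13 or their paralogs, binds the core and hinders its contact with the polymerase. MED27, MED28, MED29 and MED30 are counted with the tail here, as in structures of the mammalian complex, although other accounts place them in the head. MED19 is likewise counted with the middle module and is placed in the head by others.

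Most Mediator mRNAs differed little between N_12 and DMSO, and 1 stood far from the rest. MED29 averaged 7.46 ± 0.275 CPM in N_12 and 47.3 ± 11.5 CPM in DMSO (SD, n = 2 each), a 6.34-fold lower level in N_12. The log2 fold changes of the other 32 subunits all lay between -0.55 (MED26) and 0.80 (MED22). Across all 33 subunits 16 lay above 0 and 17 below, with a median of -0.03, against a median of 0.01 over all 14105 tested genes, of which 49.0% lay below 0. The median of the other 32 subunits was 0.00 to 2 decimals.

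**Figure D1:**
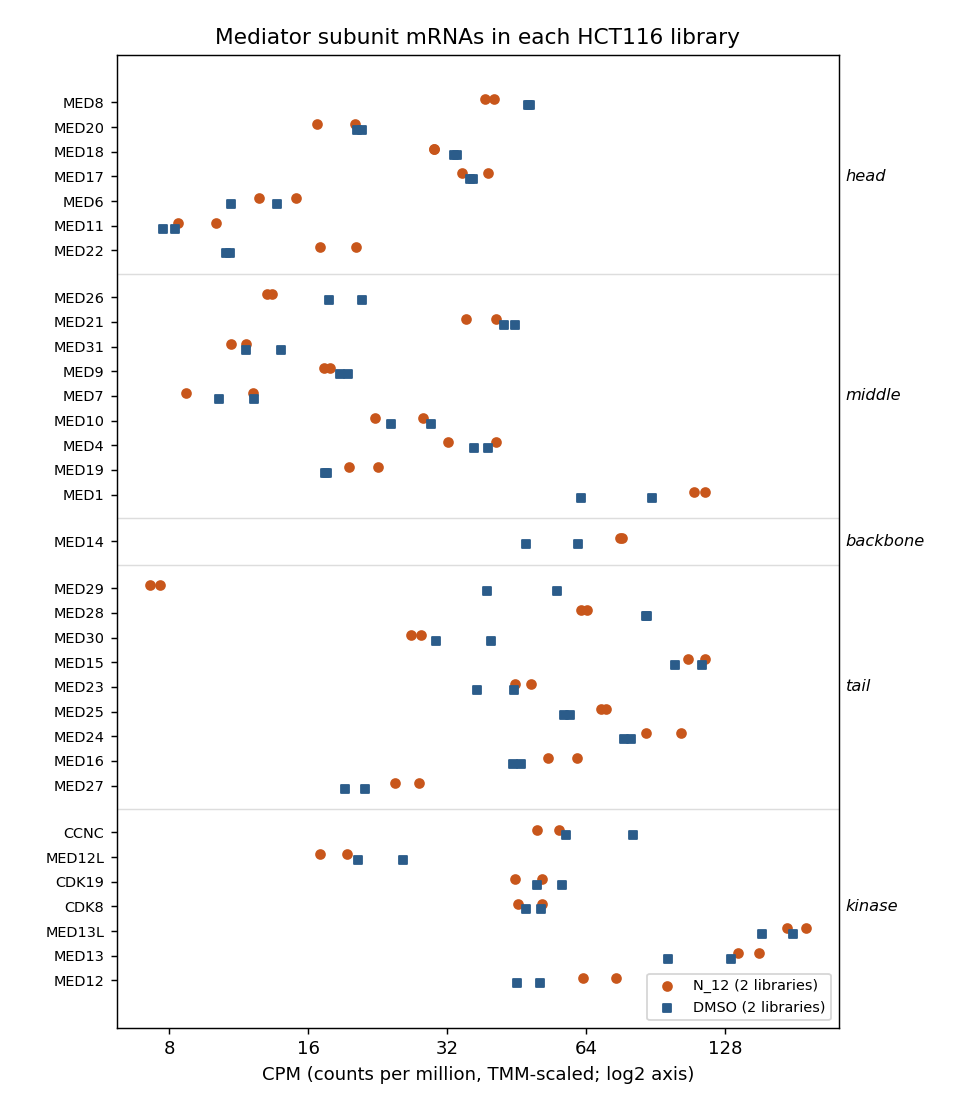
CPM of each of the 33 subunits in each library (log2 axis), grouped by module, with circles for N_12 and squares for DMSO (2 libraries each). MED29 lies at 7.26 and 7.65 CPM in N_12 and at 39.2 and 55.4 CPM in DMSO, the widest gap in the plot.

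MED29, a subunit of the tail whose Drosophila counterpart is the sex determination protein Intersex, had 306 and 312 raw counts in N_12 replicates 1 and 2, against 1194 and 1630 in DMSO replicates 1 and 2. Scaled to library size it stood at 7.26 and 7.65 CPM in N_12 and at 39.2 and 55.4 CPM in DMSO. In bulk RNA a lower level in every cell and its loss from some of the cells cannot be told apart. Both N_12 libraries were far below both DMSO libraries, and the larger spread was within DMSO, where replicate 2 was the higher. The log2 fold change was -2.66, the 20th lowest of 14105 tested genes. This rank is description only, because MED29 was chosen for its low value. Leaving out a library gave -2.65 and -2.71 without N_12 replicates 1 and 2, and -2.89 and -2.39 without DMSO replicates 1 and 2. The exons of MED29 share no bases with any other gene of the table, on either strand, in the GENCODE annotation.

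The low value of MED29 also moved its place among the subunits. Per length of its exons, as CPM per kilobase (RPKM), MED29 averaged 1.94 in N_12 and 12.3 in DMSO. Its RPKM level ranked 32nd of 33 subunits in both N_12 libraries, against 11th and 5th in DMSO replicates 1 and 2. It made up 0.656% and 0.695% of the summed RPKM of all subunits in N_12, against 3.52% and 4.87% in DMSO. The summed RPKM of the 33 subunits was 289 and 287 in N_12 and 290.1 and 297 in DMSO, so the total of the complex's messages differed little between the libraries.

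The gene lies on chromosome 19 between PAF1 and ZFP36. PAF1 is read in the opposite direction from a start 272 bases away in the RefSeq annotation, so that the promoter windows of both genes, from 250 bases before to 50 after the start, share 229 bases. The window of MED29 is shown because it is largely the same stretch of DNA that lies before PAF1. Of the 30 subunits with a window in that annotation, only MED19 also had its window overlap that of a divergent protein-coding gene, TMX2. The MED19 window, on chromosome 11, stands below that of MED29. Both are RefSeq sequences of GRCh38.p14, 5′ to 3′ on the strand of the gene, at chr19:39391128-39391427 on the plus strand and chr11:57712166-57712465 on the minus strand. Capitals mark, on either strand, the letters CCAAT of the CCAAT box, the GC box GGGCGG, the letters CCGGAAG known to be bound by ETS factors and the letters TGACGTNA known to be bound by CREB and ATF factors; no matches overlapped each other in these windows.
MED29: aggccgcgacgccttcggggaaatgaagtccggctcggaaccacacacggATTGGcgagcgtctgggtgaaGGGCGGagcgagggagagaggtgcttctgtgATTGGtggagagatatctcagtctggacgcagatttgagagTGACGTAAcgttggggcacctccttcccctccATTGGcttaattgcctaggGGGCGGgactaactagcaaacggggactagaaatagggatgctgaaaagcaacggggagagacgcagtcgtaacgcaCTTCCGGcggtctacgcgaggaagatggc
MED19: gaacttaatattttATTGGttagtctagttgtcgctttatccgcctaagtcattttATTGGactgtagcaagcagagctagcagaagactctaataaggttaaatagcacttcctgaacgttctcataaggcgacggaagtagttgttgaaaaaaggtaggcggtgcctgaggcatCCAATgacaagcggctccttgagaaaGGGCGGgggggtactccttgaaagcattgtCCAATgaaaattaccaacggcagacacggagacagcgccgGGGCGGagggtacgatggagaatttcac

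In the MED29 window 3 CCAAT, 2 GC box, 1 ETS and 1 CREB/ATF match were found, and in that of MED19 there were 4 CCAAT and 2 GC box matches. Of the 30 subunits with a window 11 held CCAAT (36.7%), against 34.6% of all 35116 windows in the table, and 18 held a GC box (60.0%), against 45.0%. The ETS letters stood in 8 subunit windows (26.7%) and in 10.3% of all windows, and the CREB/ATF letters in 2 subunit windows (6.67%) and 3.01% of all. Over the 22199 windows of protein-coding genes alone these shares were 34.7%, 56.3%, 12.8% and 3.54%. The core letters of the hypoxia response element, ACGTG or GCGTG, were in neither printed window; ACGTG was found in 6 subunit windows (20.0%, against 21.4% of all) and GCGTG in 13 (43.3%, against 36.5%). Such a match is a string of letters and was not examined as a site of binding.

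PAF1, a subunit of the elongation complex named after it, did not share the low value of MED29. It had 105 and 109 CPM in N_12, against 93.6 and 88.0 CPM in DMSO, a log2 fold change of 0.24 (SE 0.13, 95% interval -0.07 to 0.54; adjusted p = 0.337 by edgeR's quasi-likelihood test). The RPKM level of MED29 was 0.0481 and 0.0489 times that of PAF1 in N_12 and 0.291 and 0.439 times in DMSO. On the other side, ZFP36, which codes for an RNA-binding protein that speeds the decay of AU-rich messages, had 88.3 and 72.8 CPM in N_12 and 168 and 130.1 CPM in DMSO. ZFP36 fell with a log2 fold change of -0.89 (SE 0.17, edgeR adjusted p = 0.0465). That call was lost without DMSO replicate 1 (-0.69, adjusted p = 0.160). Leaving out N_12 replicate 1 (0.148) or replicate 2 (0.196) ended it too, as did scaling by library totals alone (0.0524), limma-voom (0.0834) and non-robust dispersions (0.0839). MED19 and its divergent neighbour TMX2 both lay on the higher side, at 0.28 (95% interval -0.11 to 0.66) and 0.41 (0.08 to 0.75, edgeR adjusted p = 0.160), neither of them called. TMX2 shares 11.8% of its exon bases with the read-through gene TMX2-CTNND1.

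**Figure D2:**
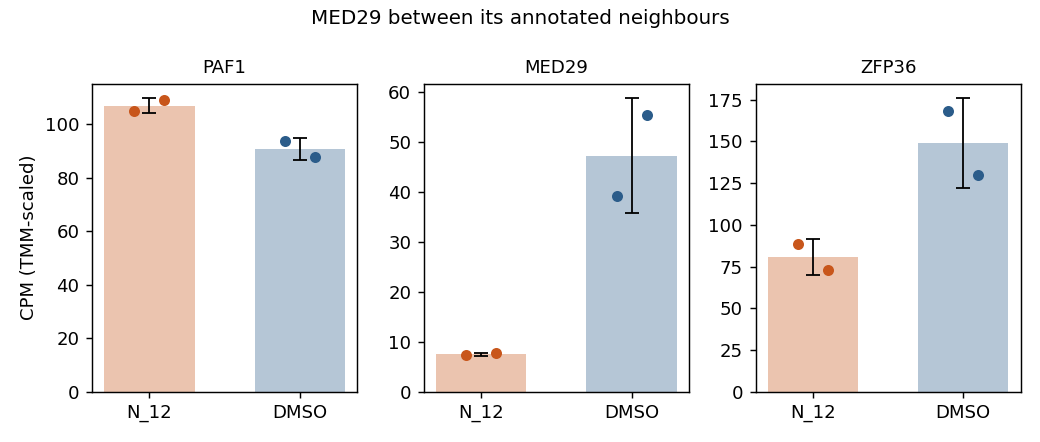
CPM of PAF1, MED29 and ZFP36, in their order along the chromosome, each on its own axis from 0; bars are means, error bars SD and points the 2 libraries of N_12 and of DMSO. MED29 averages 7.46 CPM in N_12 and 47.3 CPM in DMSO, while PAF1 averages 107 CPM in N_12 and 90.8 CPM in DMSO.

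With p-values adjusted by Benjamini and Hochberg's method across the whole table and a threshold of 0.05, edgeR called 1 of the 33 subunits, MED29, as lower, where 2.25% of all genes were called, 1.43% as lower and 0.822% as higher. Because MED29 was known beforehand nothing is read from this count. None of the other 32 subunits was called by edgeR or by limma-voom (0.929% of all genes), and DESeq2 called 2 of them (6.25%), MED22 and MED28, against 8.68% of all genes. That 8.68% is a share of all 14105 tested genes, including 1641 to which DESeq2 gave no adjusted p. Among the genes it could call the share was higher. Of these 32, 7 (21.9%) had an unadjusted p under 0.05, against 21.8% of all genes, which is close to the background. The groups did not overlap for 23 of these 32 (71.9%), 12 higher and 11 lower in N_12, against 54.7% of all genes (27.9% higher and 26.8% lower). Without N_12 replicate 1, or without N_12 replicate 2, edgeR called no gene of the table at all, MED29 included.

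The head module, with 7 subunits, had a median log2 fold change of 0.03 in N_12 over DMSO, with 4 members above 0 and 3 below. MED22, which pairs with MED11 in the head, had 17.0 and 20.3 CPM in N_12, against 10.9 and 10.6 CPM in DMSO. Both N_12 libraries were above both DMSO libraries, and the DMSO replicates were nearly alike. Its log2 fold change of 0.80 (SE 0.18, 95% interval 0.38 to 1.21) was the highest of all subunits but was not called (edgeR adjusted p = 0.0642). DESeq2 called it (log2 fold change 0.79, adjusted p = 0.00806), and over all 15 settings tried its adjusted p ran from 0.00806 to 0.217. MED11 itself stood at 0.21 (95% interval -0.24 to 0.66). MED8, MED18 and MED20, which together form the movable part of the head, had -0.28, -0.15 and -0.17, with N_12 below DMSO in every library for each. MED17, the scaffold of the head, was at 0.03 and MED6, at the joint with the middle module, at 0.17, both with overlapping groups.

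The middle module had a median of -0.11, with 7 of 9 members below 0. MED26, which hands over from TFIID to elongation factors, averaged 13.2 ± 0.238 CPM in N_12 and 19.4 ± 2.25 CPM in DMSO (log2 fold change -0.55, SE 0.17, edgeR adjusted p = 0.130). Its exons share 38.2% of their bases with 2 other genes of the same strand, so its counts depend on how reads were assigned. MED1, the contact of nuclear receptors, lay on the other side, with 109.8 and 116 CPM in N_12 and 62.5 and 89.0 CPM in DMSO. Its log2 fold change of 0.58 (SE 0.18, adjusted p = 0.136) moved to 0.35 without DMSO replicate 1 and to 0.85 without DMSO replicate 2, where edgeR called it (adjusted p = 0.0481). The other 7 members ranged from -0.20 (MED21, part of the hinge of the module) to 0.28 (MED19), and the 95% interval of each included 0. MED31 shares 58.4% of its exon bases with TXNDC17 on the other strand; without a stated strand setting their reads cannot be told apart. The median of this module was 0.082 without N_12 replicate 2 and -0.25 without N_12 replicate 1, so its sign rested on single libraries.

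MED14, the backbone, averaged 76.2 ± 0.347 CPM in N_12 and 54.4 ± 10.00 CPM in DMSO. Its log2 fold change was 0.49 (SE 0.17, edgeR adjusted p = 0.156), with no overlap of the groups. As with MED1, DMSO replicate 1 was the lowest library, at 47.4 CPM against 61.5 CPM in DMSO replicate 2. The log2 fold change of MED14 was 0.31 without DMSO replicate 1 and 0.69 without DMSO replicate 2.

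The tail module ran from -2.66 to 0.38, a width set by MED29, which was chosen for its low value. Without MED29 it ran from -0.45 to 0.38 and was not the widest. Its median was 0.19 with MED29 and 0.23 without it, and 6 of 9 members lay above 0. Its activator-binding members MED15, MED16, MED23, MED24 and MED25 were all above 0 in the fit of all libraries. They ran from 0.05 (MED15, a contact of SREBP and SMAD factors) to 0.33 (MED16), with a median of 0.26. None was called, and each 95% interval included 0. MED15 ranged from -0.04 without DMSO replicate 2 to 0.15 without DMSO replicate 1, so its sign rested on single libraries. The 3 subunits that join MED29 where head and tail meet differed among themselves. MED28 had 64.2 and 62.5 CPM in N_12, against 86.9 and 86.5 CPM in DMSO. Both N_12 libraries were lower and the replicates of each group nearly alike, with a log2 fold change of -0.45 (SE 0.13, 95% interval -0.76 to -0.14). It was not called by edgeR (adjusted p = 0.117) but was by DESeq2 (-0.46, adjusted p = 0.0258), and 32.05% of its exon bases lie opposite those of FAM184B. MED30, found in animals but not in yeast, was at -0.35 (95% interval -0.77 to 0.06), which became -0.14 without DMSO replicate 1 and -0.54 without DMSO replicate 2. MED27 was at 0.38 (0.00 to 0.75). The difference between MED29 and the nearest of these, MED28, is one of 6.34-fold against 1.37-fold lower.

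**Figure D3:**
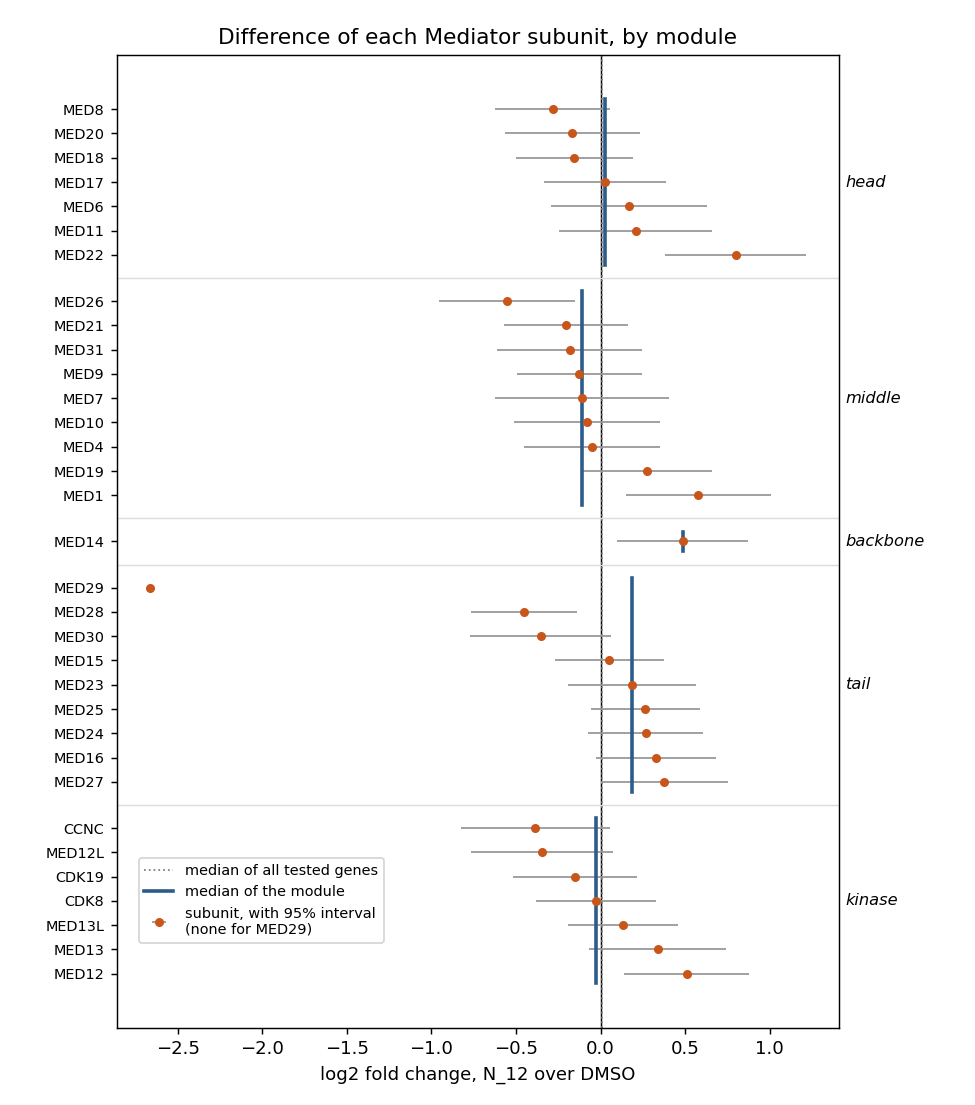
Log2 fold change of each subunit (N_12 over DMSO, points) with its 95% interval (lines; none drawn for MED29), by module; thick vertical lines are module medians and the dotted line is the median of all tested genes. MED29, at -2.66, lies apart from the other 32 subunits, which reach from -0.55 to 0.80.

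The kinase module had a median of -0.03, with 3 of 7 members above 0. MED12, which activates the kinase through cyclin C, had 63.0 and 74.4 CPM in N_12, against 51.0 and 45.5 CPM in DMSO. Both N_12 libraries were higher, with a log2 fold change of 0.51 (SE 0.16, 95% interval 0.14 to 0.88, edgeR adjusted p = 0.129). Its paralog MED12L had 19.4 and 17.0 CPM in N_12, against 20.5 and 25.6 CPM in DMSO (-0.35, 95% interval -0.77 to 0.08; -0.50 without DMSO replicate 1 and -0.18 without DMSO replicate 2). The RPKM level of MED12L was 0.181 and 0.134 times that of MED12 in N_12 and 0.237 and 0.332 times in DMSO, with no overlap.

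MED13, the link between the kinase module and the core, had 137 and 152 CPM in N_12, against 96.6 and 131.8 CPM in DMSO (0.34, 95% interval -0.07 to 0.74). Its value was 0.13 without DMSO replicate 1 and 0.58 without DMSO replicate 2. Its paralog MED13L had 174 and 192 CPM in N_12, against 154 and 180.1 CPM in DMSO (0.13, -0.19 to 0.46), so that the groups overlapped. Per length MED13L stood at 0.433 and 0.428 times MED13 in N_12 and 0.540 and 0.464 times in DMSO. The kinases themselves were nearly level. CDK8 had 51.3 and 45.7 CPM in N_12, against 51.3 and 47.6 CPM in DMSO, with a log2 fold change of -0.03 (95% interval -0.38 to 0.33). Its paralog CDK19 had 51.5 and 44.9 CPM in N_12, against 50.2 and 56.9 CPM in DMSO, with -0.15 (-0.52 to 0.22). The RPKM ratio of CDK19 to CDK8 was 0.474 and 0.465 in N_12, against 0.463 and 0.564 in DMSO, and the groups overlapped. CCNC, their cyclin, averaged 53.1 ± 4.08 CPM in N_12 and 69.5 ± 16.4 CPM in DMSO (-0.39, 95% interval -0.83 to 0.05), with DMSO replicate 2 alone at 81.1 CPM; without that library the log2 fold change of CCNC was -0.12, and without DMSO replicate 1 it was -0.61. With 2 libraries per group an exact permutation test of such a ratio cannot go below p = 0.333, so none was run.

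Levels among the subunits spread more widely than the differences between treatments. In DMSO the RPKM level ran from 1.49 for MED22 to 24.3 for MED30, and in N_12 from 1.44 for MED12L to 19.0 for MED30. Median RPKM by module was 5.64 for the head, 11.3 for the middle, 10.7 for the tail and 9.22 for the kinase module in N_12, against 5.41, 9.32, 10.3 and 7.15 in DMSO. The median of the 33 subunits was 9.11 RPKM in N_12 and 7.89 RPKM in DMSO, against 5.28 and 5.15 RPKM over the 14089 tested genes with a known length. Lengths are those of all annotated exons of a gene, which understates the level of genes with long rarely used exons. Replicates agreed within 1.3-fold in N_12 for all subunits but MED7, and in DMSO for all but MED29, MED1, CCNC, MED13 and MED30. DMSO replicate 1 was the lower library for 4 of these 5, and the part of that library in their differences was not tested beyond leaving it out.

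Other complexes that work with Mediator on RNA polymerase II, listed by role, were compared in the same way. Of 75 genes in 6 lists edgeR called 0, limma-voom 0 and DESeq2 4 (GTF2H1, MAU2, MLLT3 and SMC1A), and 17 had an unadjusted p under 0.05, 11 higher and 6 lower. These shares, 5.33% by DESeq2 and 22.7% by the unadjusted p, stood beside 8.68% and 21.8% of all genes. Log2 fold changes ran from -0.64 (MLLT3, of the super elongation complex) to 0.85 (GTF2H1, a subunit of TFIIH), with a median of 0.01. All 75 lay nearer to 0 than MED29, from which nothing is read because MED29 was chosen for its low value.

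The 12 RNA polymerase II subunits had a median of -0.03 (-0.16 to -0.01 without 1 library), and POLR2H had the smallest p (-0.49, SE 0.16, edgeR adjusted p = 0.136). The 18 general transcription factors also had a median of -0.03 (-0.19 to 0.00 without 1 library). GTF2H1 stood at 33.7 and 27.3 CPM in N_12 and at 15.5 and 18.2 CPM in DMSO, both N_12 libraries being higher (0.85, SE 0.18, adjusted p = 0.0558). The 16 genes of TFIID, which holds the TATA-binding protein, had a median of 0.14, with TAF2 at 0.61 (SE 0.21, adjusted p = 0.152; 0.36 without DMSO replicate 1 and 0.91, called, without DMSO replicate 2). For the 16 genes of P-TEFb, the kinase that releases paused polymerase, and of the super elongation complex the median was -0.18, with 11 below 0 and the smallest p for MLLT3 (SE 0.19, adjusted p = 0.110). In the PAF1 complex 5 of 6 genes lay above 0 (median 0.16), among them LEO1 at 0.71 (SE 0.22, adjusted p = 0.134). LEO1 had 16.5 CPM in DMSO replicate 1 and 25.7 CPM in DMSO replicate 2; its value was 0.42 without the lower of these libraries and 1.06, called (adjusted p = 0.0404), without the higher. Cohesin, which holds Mediator-bound enhancers and promoters together, and its loader had 6 of 7 genes above 0 and a median of 0.48. DMSO replicate 1 was below DMSO replicate 2 for 7 of these 7 genes, and the median was 0.20 without DMSO replicate 1 and 0.77 without DMSO replicate 2. The smallest p there was that of SMC1A, with 119 and 134 CPM in N_12 and 73.9 and 86.3 CPM in DMSO (0.66, SE 0.15, adjusted p = 0.0640).

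**Figure D4:**
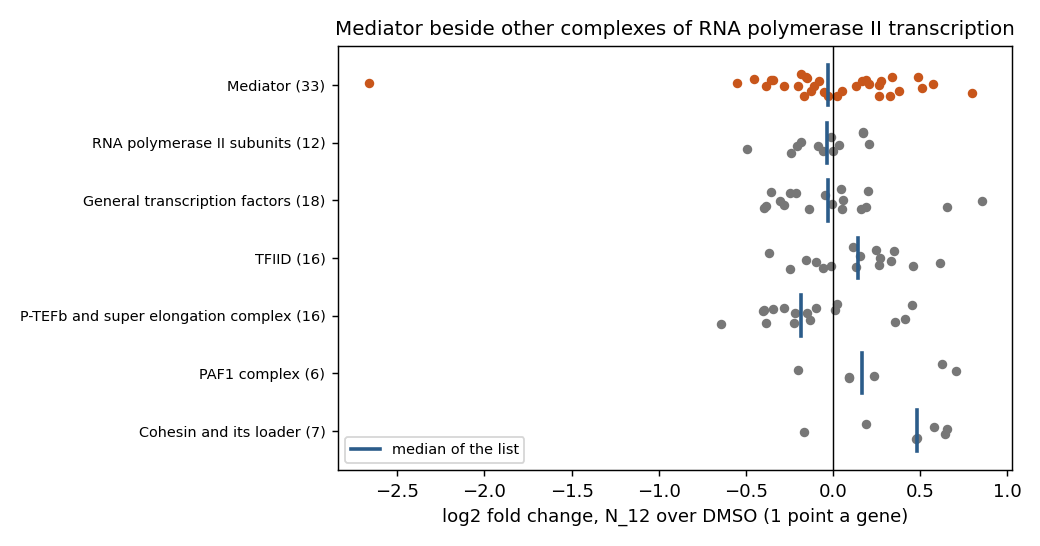
Log2 fold change (N_12 over DMSO, 1 point a gene) of the 33 Mediator subunits and of 6 lists of other transcription complexes, with the number of genes in brackets and the median of each list as a vertical line. MED29, at -2.66, is the leftmost point, and the 75 genes of the other lists lie between -0.64 and 0.85.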

How the data were processed

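The authors deposited whole-number counts per human Ensembl gene for 4 mRNA libraries, built from 1.4 ug of total RNA each per the labels' protocols, without normalization. Aligner, counter and strandedness: not given in the sources used here. GRCm38 and mm10, which are mouse builds, appear in the submitters' processing notes, although the gene identifiers are human. Symbols were found for 20148 of 20263 genes, and exon lengths and overlaps came from GENCODE 29. Groups came from the sample titles.

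The counts went into edgeR 4.0.16 (R 4.3.3): TMM scaling, edgeR's expression filter, robust quasi-likelihood fit of N_12 over DMSO on the whole table (14105 genes), Benjamini-Hochberg threshold 0.05, two-sided. CPM use TMM-scaled totals, except the marker sums, which use unscaled library totals. RPKM divide the TMM-scaled CPM by exon length. Alternatives were other scalings, filters, a replicate term, leaving out libraries, limma-voom 3.58.1, DESeq2 1.42.0 and non-robust dispersions. The fit was also run on simulated counts, from which nothing is read here. Replicates of each group were distinct libraries, with a chi-square over its degrees of freedom of 57.2 within N_12 and 36.5 within DMSO.

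Subunits, modules and gene lists were chosen with earlier results of these data known. The text names all subunits, the gene of each other list with the smallest p, and the genes beside MED29; MAU2 and TMX2 were named after their values were seen.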

Additional observations from a re-analysis of the deposited data

How the results depend on the processing

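The log2 fold change of MED29 ran from -2.89 to -2.39 over the settings, the ends being those without DMSO replicates 1 and 2. This range is description only, because MED29 was chosen for its low value and every setting drew on the same libraries. Over all genes, 317 were called, against 963 with a replicate block, 1225 by DESeq2, 131 by limma-voom, 131 with non-robust dispersions and 0 to 451 when 1 library was left out. Subunits called numbered 1, against 2 with the replicate block (MED22 added), 3 by DESeq2 and 0 to 2 without 1 library. Genes called in the 6 other lists numbered 0, against 1 with no low count filter, 1 with the stricter filter (at least 1 CPM in all 4 libraries), 7 with the replicate block, 4 by DESeq2 and 0 to 6 without 1 library.

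Whether the replicate numbers pair the samples was not settled. Deviations of same-numbered libraries from their group means correlated at -0.11 across genes, which with 2 libraries a group cannot decide it. With the numbers as a block 963 genes were called. With the numbers crossed as a block, a choice made after seeing the data, 28 genes and 1 subunit were called.

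The middle median ran from -0.25 to 0.082 and the kinase median from -0.13 to 0.051 without 1 library. The head median likewise changed sign, from -0.051 without N_12 replicate 1 to 0.061 without N_12 replicate 2. With MED27 to MED30 placed in the head its median was -0.15. That set includes MED29, which was chosen for its low value, and its median without MED29 was not computed. Without CDK19 and the L paralogs the median of the kinase module was 0.155. Other scalings moved the median of all genes by at most 0.05. Of 448 values of the other subunits under the alternatives 444 kept their side of the threshold and 4 passed it; 11 values of 6 uncalled subunits changed sign.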
